A study of Rattus norvegicus with 2 samples.

Results

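The 10 genes described here are those by which a neuron makes, packs, recovers and degrades acetylcholine (Chat, Slc18a3, Slc5a7, Ache) and the receptors and signal genes by which cytokines can switch a sympathetic neuron to acetylcholine (Lifr, Il6st, Cntfr, Osmr, Socs3, Stat3). They were chosen by gene symbol, and all 10 have a line among the 25399 lines listed for each library. The data are single-cell RNA sequencing (scRNAseq) of dissociated stellate ganglia, the sympathetic ganglia that supply the heart, with 1 library per strain: Wistar rats, which were normotensive, and SHRs (spontaneously hypertensive rats), which were prehypertensive. The animals of both strains were males of 5 to 6 weeks of age, and how many animals went into a library is not given in the sources used here. Each library is given as 1 value per gene, the mean over its sympathetic neurons, so that the NPY-expressing and other sympathetic neurons are pooled. Replicates, and so a spread between them, are lacking. No difference between the strains given here therefore has an error or a test, and none can be told apart from a difference between 2 preparations.

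Most postganglionic sympathetic neurons release norepinephrine, and a minority, such as those that supply sweat glands, release acetylcholine instead. During the innervation of sweat glands, and in cultured sympathetic neurons, cytokines of the leukemia inhibitory factor family turn noradrenergic neurons cholinergic, and the same cytokines are known for this action on cardiac sympathetic neurons in heart failure. These cytokines bind a receptor complex that contains the shared subunit gp130 (Il6st) with the LIF receptor (Lifr) or the oncostatin M receptor (Osmr), and ciliary neurotrophic factor also needs its own binding subunit (Cntfr). Janus kinases on the complex phosphorylate STAT3, which enters the nucleus and induces Socs3, an inhibitor of the same signal.

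Levels are given as mean counts per 10000 counts of a cell. The chemistry tags transcripts at their 3' end, so that a captured transcript yields 1 tag whatever its length and the means were not divided by gene length. How well the 3' end of each gene was captured or annotated was not examined, which limits comparisons of level between genes. Differences are given as the percent difference of the means and as the log2 difference, for which 1 was added to each mean before the log was taken and Wistar was subtracted from SHR. The added 1 shrinks the log2 difference of genes of low mean. Counts of genes use those whose 2 means average 0.1 per 10000 or more, a minimum that 7621 genes passed. A gene can pass it with 1 of its means under 0.1. Genes that pass through their Wistar mean in this way are lower in SHR by construction, and the shares of all genes include such genes too. A lower mean can come from fewer neurons with the transcript or from fewer transcripts per neuron, and means over cells cannot tell these apart.

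A pair of the members share 1 locus. Slc18a3, the vesicular acetylcholine transporter, lies within the span of Chat, which encodes the enzyme of acetylcholine synthesis, on the same strand in the GRCr8 rat assembly, and the starts of the 2 genes are 602 bases apart. The windows around these starts are shown because this locus is where the neuron means were at or near 0, and the window of Slc5a7, the high-affinity choline transporter, is shown as that of the nerve terminal gene that was detected. They run from 250 bases before to 50 bases after the annotated start (RefSeq, GRCr8), with the 50 bases after the start in capitals. The Chat window is chr16:7723367-7723666, the Slc18a3 window chr16:7722765-7723064 and the Slc5a7 window chr9:7953460-7953759, all on the minus strand.
Chat: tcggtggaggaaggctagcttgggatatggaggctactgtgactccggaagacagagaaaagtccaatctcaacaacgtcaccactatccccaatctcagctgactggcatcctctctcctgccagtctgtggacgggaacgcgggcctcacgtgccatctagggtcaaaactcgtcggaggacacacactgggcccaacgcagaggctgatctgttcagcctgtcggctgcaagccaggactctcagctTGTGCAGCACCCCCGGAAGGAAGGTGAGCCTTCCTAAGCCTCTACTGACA
Slc18a3: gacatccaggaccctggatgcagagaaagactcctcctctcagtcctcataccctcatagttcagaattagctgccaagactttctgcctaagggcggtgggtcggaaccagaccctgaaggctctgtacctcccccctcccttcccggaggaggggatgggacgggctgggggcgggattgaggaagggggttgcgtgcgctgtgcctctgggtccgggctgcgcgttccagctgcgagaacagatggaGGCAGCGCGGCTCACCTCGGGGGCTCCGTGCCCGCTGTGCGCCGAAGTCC
Slc5a7: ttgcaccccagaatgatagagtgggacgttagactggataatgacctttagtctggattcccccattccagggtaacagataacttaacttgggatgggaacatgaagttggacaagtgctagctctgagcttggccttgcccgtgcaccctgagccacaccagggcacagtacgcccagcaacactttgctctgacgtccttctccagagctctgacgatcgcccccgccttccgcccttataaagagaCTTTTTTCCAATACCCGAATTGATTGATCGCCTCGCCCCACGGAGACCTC

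RefSeq windows were found for 9 of the 10 members, and 10 patterns of letters, chosen after the data were examined, were searched in them on both strands. TTCNNNGAA, the core of the site that STAT proteins bind, was in 0 of the 9 windows and in 8.87% of the 33469 windows of all genes. The same letters with 1 base less between them, TTCNNGAA (in Il6st, and in 8.77% of all windows), and with 1 base more (in none, and in 7.28%), the stricter TTCCNGGAA (in none, and in 1.27%), TGACGTCA (in none, and in 1.83%) and CGCGCG (in none, and in 10.2%) were also searched. CACGTG was in the windows of Ache and Chat (6.42% of all), TATAAA in that of Slc5a7 (14.2%), CATCTG in that of Slc18a3 (16.6%) and TAATT in those of Lifr, Slc18a3 and Stat3 (28.5%). TTCCNGGAA is contained in TTCNNNGAA, and a match or its lack says only whether these letters are in these windows.

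Chat and Slc18a3 were hardly represented in the neuron means of either strain. Chat was listed at 0 in Wistar and at 0 in SHR, as were 9006 genes (35.5% of all). The mean of Slc18a3 in Wistar was 0.000393 per 10000, and that in SHR 0.000523. Its SHR value was shared to 9 decimals of the deposited log by 22 genes, and its Wistar value by 4 genes, itself included in both. No fold was taken between 2 such values. The means hold neither the number of neurons nor their counts, so that a limit on the level of Chat cannot be given.

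Slc5a7 was present in both libraries and lower in SHR. This transporter recovers choline into cholinergic nerve terminals and sets the supply for acetylcholine synthesis. In Wistar its mean was 0.432 per 10000 and in SHR 0.218, which is 49.7% lower, a 1.99-fold difference of the means and a log2 difference of -0.23. By its mean it ranked 3873 among all genes in Wistar and 5113 in SHR.

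Ache had the highest mean of the 10 genes. It encodes acetylcholinesterase, which breaks down acetylcholine at synapses, including those that preganglionic fibers form on these neurons. In Wistar its mean was 6.01 per 10000 and in SHR 5.64, which is 6.10% lower, with a log2 difference of -0.077 that turned to 0.10 with the median ratio of all genes set to 1. In rank it stood at 179 among all genes in Wistar and at 248 in SHR. The noradrenergic genes Phox2a and Slc18a2 ranked 177 and 224 in Wistar, and 156 and 411 in SHR. The 4 cholinergic genes thus spanned the range from 0 to a level above that of Slc18a2, the vesicular monoamine transporter, in both libraries.

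**Figure D1:**
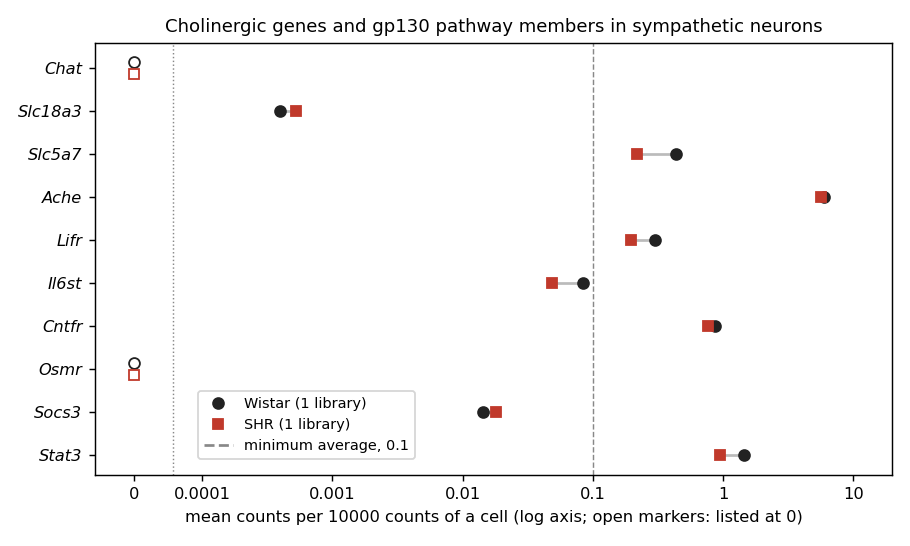
Mean counts per 10000 counts of a cell on a log axis for the 10 members, with black circles for the Wistar library and red squares for the SHR library; open markers left of the dotted line are genes listed at 0, and the dashed line is the minimum average of 0.1. Chat and Osmr sit at 0 in both libraries, and Ache, at 6.01 in Wistar and 5.64 in SHR, sits farthest to the right.

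The receptor subunits were unequal in level, in the same order in both strains. Cntfr, the ciliary neurotrophic factor receptor subunit, had the highest mean of the 4, at 0.866 per 10000 in Wistar and 0.769 in SHR, which is 11.2% lower (log2 difference -0.077, which turned to 0.019 with the median ratio of all genes set to 1). The mean of Lifr was 0.302 in Wistar and 0.197 in SHR, which is 34.9% lower (log2 difference -0.12). Il6st, the subunit that all of these complexes share, was lower than both, at 0.0837 per 10000 in Wistar and 0.0489 in SHR, which is 41.6% lower (log2 difference -0.047). Its average is under the minimum. With the median difference of all genes set to 0, its log2 difference became 0.0052. That setting adds 0.052 to every gene, also to genes listed at 0. With the median ratio of all genes set to 1, the log2 difference of Il6st stayed negative, at -0.036. The mean of Cntfr was 10.4 times that of Il6st in Wistar and 15.7 times in SHR, and that of Lifr was 3.61 and 4.03 times that of Il6st. Osmr was listed at 0 in both libraries. It is the neighbor of Lifr in the GRCr8 assembly, with no other protein coding gene between them.

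Of the 2 signal genes, Stat3 was clearly represented and Socs3 was not. The Wistar mean of Stat3, the transcription factor of the pathway, was 1.46 per 10000 and the SHR mean 0.946, which is 35.2% lower. Its log2 difference was -0.34, ahead of -0.23 for Slc5a7, an order that turned with 0.1 in place of the added 1, where Stat3 was at -0.58 and Slc5a7 at -0.75. The Wistar mean of Socs3 was 0.0142 per 10000 and the SHR mean 0.0181, which is 27.0% higher with a log2 difference of 0.0055, and it is under the minimum. The mean of Stat3 was 102.4 times that of Socs3 in Wistar and 52.3 times in SHR.

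Of the 10 members, 5 passed the minimum (Slc5a7, Ache, Lifr, Cntfr and Stat3) and 5 did not. All 5 that passed had a lower mean in SHR, beside 65.6% of all genes past the minimum. The median gene past the minimum was itself 1.16-fold lower in SHR, and with this ratio set to 1, an alternative chosen after seeing the data, 3 of the 5 were lower, where by construction all genes divide evenly, and Ache and Cntfr were higher. The means of 3 of the 5, Slc5a7, Lifr and Stat3, were lower in SHR by at least 1.5-fold, beside 26.5% of all genes past the minimum, a count that became 1, beside 17.3%, with the median ratio set to 1. None of the 5 was higher in SHR by that fold, beside 5.22% of all genes. Lifr, at 1.54-fold, and Stat3, also at 1.54-fold, lie just past this size. They fell short of it, at 1.493-fold and 1.499-fold, once mitochondrial and ribosomal protein genes were taken from the total, whereas Slc5a7 was at 1.93-fold. With the median ratio of all genes set to 1 they were at 1.33-fold each, and Slc5a7 at 1.72-fold. The median log2 difference of the 5 members was -0.12, beside -0.052 for all genes past the minimum.

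**Figure D2:**
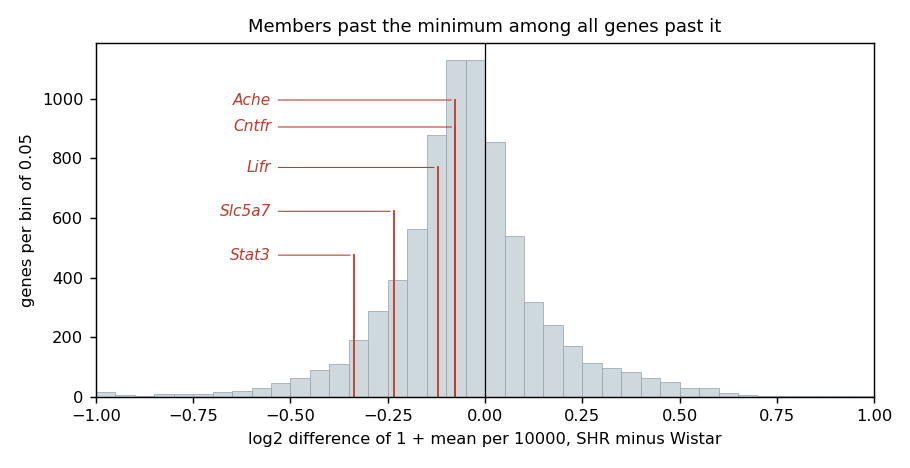
Number of genes past the minimum by log2 difference between SHR and Wistar, with 1 added to each mean per 10000, in bins of 0.05; red lines mark the 5 members past the minimum, and the outermost bins also hold the 13 genes below -1 and the 4 genes above 1. The 5 members lie left of 0, from -0.34 for Stat3 to -0.077 for Ache and Cntfr, of which the last 2 lie right of 0 with the median ratio of all genes set to 1.

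Markers of other cells differed between the libraries mostly in the same direction. Of all genes, 65.6% of those past the minimum and 68.1% with no minimum were lower in SHR. The markers of the sympathetic neurons themselves were high in both, with 8 of 12 lower and 4 higher in SHR, among the lower ones Ddc, 51.2% lower, and Dbh, 37.6% lower. For Wistar the sum of the 12 was 136.0 per 10000 and for SHR 143.3, none of the 12 was at 0, and their single means ran from 0.250 to 58.0 in Wistar and from 0.331 to 67.6 in SHR. Prph, which encodes the neuronal intermediate filament peripherin, was at 58.0 per 10000 in Wistar against 67.6 in SHR, the largest part of both sums. Snap25, a protein of synaptic vesicle fusion, was at 17.4 per 10000 in Wistar and 23.7 in SHR. All 8 markers of satellite glia, the cells that wrap these neurons, were lower in SHR, with none at 0 and a sum of 9.34 per 10000 in Wistar against 3.45 in SHR, a 2.71-fold difference. Of that sum Apoe gave 6.24 in Wistar and 2.23 in SHR. Other glial markers past the minimum were also lower in SHR, among them Mbp (1.05 in Wistar and 0.632 in SHR), S100b (0.424 and 0.0744) and Cdh19 (0.189 and 0.0535). S100b and Cdh19 passed the minimum through their Wistar means.

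The 6 fibroblast markers summed to 1.84 per 10000 in Wistar and 0.353 in SHR, with none at 0. All 6 were lower in SHR (68.1% of all genes with no minimum), among them Col3a1 (0.814 and 0.152), Col1a1 (0.542 and 0.0644) and Dcn (0.387 and 0.0964). The 6 immune markers summed to 1.15 in Wistar and 0.405 in SHR, with 5 lower and none at 0, and Cd74, the invariant chain of class II antigen presentation, at 0.843 and 0.329. The sums were at most 0.107 per 10000 in either library for the markers of endothelium (4 of 4 listed genes lower in SHR), smooth muscle (2 of 4 lower, with Rgs5 at 0 in SHR) and erythrocytes (1 of 2 lower, Alas2 at 0 in both). Rgs5 and Alas2 were named after their values were seen. Genes such as Lifr, Il6st and Stat3 are not particular to neurons, and the part of such cells in the lower means of the members was not tested.

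**Figure D3:**
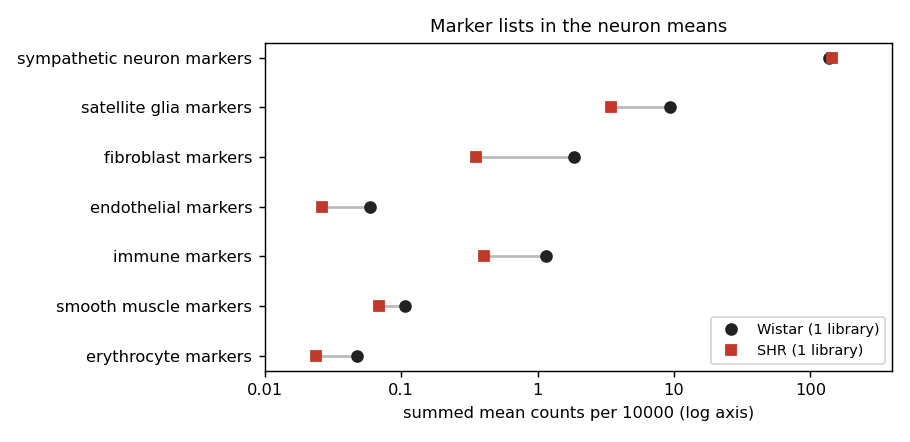
Summed mean counts per 10000 on a log axis for the sympathetic neuron markers and the markers of 6 other kinds of cell, with black circles for the Wistar library and red squares for the SHR library. The sums of the sympathetic neuron markers nearly coincide, at 136.0 and 143.3, although 8 of the 12 were lower and 4 higher in SHR. Prph, the largest part of both sums, and Snap25 were among the higher. Each of the other sums is lower in SHR, such as 9.34 against 3.45 for satellite glia.

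Among the relatives and anchors of acetylcholinesterase, Bche was the member with a higher mean in SHR. Bche, which encodes butyrylcholinesterase, was at 2.99 per 10000 in Wistar and 3.71 in SHR, which is 24.1% higher (log2 difference 0.24). It stood at 49.7% of the mean of Ache in Wistar and at 65.7% in SHR. Prima1, the anchor that holds acetylcholinesterase in neuronal membranes, was at 0.237 and 0.214 per 10000 (log2 difference -0.028, which turned to 0.012 with the median ratio of all genes set to 1). Colq, the collagen tail of the enzyme at the neuromuscular junction, which was named after its values were seen, was at 0.0136 in Wistar and 0.0135 in SHR.

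The genes that take up and phosphorylate choline feed membrane lipids as well as acetylcholine. Of the 10 genes in this list 6 passed the minimum, all 6 were lower in SHR (65.6% of all genes) and 4 of them by at least 1.5-fold (26.5% of all genes). The median log2 difference was -0.29 beside -0.052 for all genes, and -0.20 with the median ratio of all genes set to 1. These counts were not taken again under other scalings. Slc44a5, a choline transporter-like gene, had the largest fold, from 0.442 per 10000 in Wistar to 0.127 in SHR, which is 71.2% lower. Chka, choline kinase alpha, was at 0.671 in Wistar and 0.328 in SHR, which is 51.0% lower. The choline transporter-like genes Slc44a1 (0.880 in Wistar and 0.545 in SHR) and Slc44a2 (1.12 and 0.737) were 38.0% and 34.2% lower. At 1.61-fold and 1.52-fold they lie near the 1.5-fold size. Pcyt1a, of phosphatidylcholine synthesis, was at 0.307 and 0.253, and Pemt, which makes phosphatidylcholine by methylation, at 0.128 and 0.0911. Pemt passed the minimum through its Wistar mean. The log2 difference of Pemt turned to 0.0038 with the median difference of all genes set to 0, which adds 0.052 to every gene. With the median ratio of all genes set to 1 it stayed negative, at -0.029.

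None of the 9 genes for cytokines of this family passed the minimum. Their sum was 0.0966 per 10000 in Wistar and 0.0765 in SHR, most of it from Cntf, which was at 0.0563 and 0.0613. Lif was listed at 0.000170 in Wistar, a value that 7 genes share, and at 0 in SHR. Cntf and Lif, whose products bind the receptors above, were named after their values were seen. Of the 4 other receptors of the family Il11ra1, the interleukin 11 receptor, was the 1 gene past the minimum, at 0.584 in Wistar and 0.471 in SHR (log2 difference -0.11).

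The kinases and STAT genes beside Stat3 differed by unequal amounts. Of the 10 listed genes 9 have a line and 6 passed the minimum, all 6 were lower in SHR (65.6% of all genes) and 1 of them by at least 1.5-fold (26.5% of all genes), with a median log2 difference of -0.096 beside -0.052. That gene was Tyk2, a Janus kinase, at 0.242 per 10000 in Wistar and 0.123 in SHR, which is 49.4% lower. Its log2 difference was -0.15, and -0.62 with 0.1 in place of the added 1. Jak1, the main kinase of gp130 complexes, was at 0.648 and 0.491, which is 24.1% lower. Jak2 was at 0.361 and 0.355, with a log2 difference of -0.0063. The difference of Jak2 turned to 0.0052 when mitochondrial and ribosomal protein genes were taken from the total. It was 0.046 with the median difference set to 0 and 0.052 with the median ratio set to 1. The transcription factors Stat2 (0.598 and 0.471), Stat6 (0.545 and 0.468) and Stat4 (0.352 and 0.295) were each lower by a log2 difference between -0.12 and -0.062. Stat3 had the highest mean of the listed STAT genes in both libraries.

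The inhibitors of the pathway were mixed. Of 13 genes 7 passed the minimum, with 5 lower (65.6% of all genes) and 2 higher in SHR. By at least 1.5-fold 3 were lower (26.5% of all genes), and the median log2 difference was -0.085 beside -0.052 for all genes. The 2 that were higher were Socs5 (0.503 in Wistar and 0.546 in SHR) and Socs6 (0.189 and 0.204), which belong with Socs3 to the suppressors of cytokine signaling. Among the protein inhibitors of activated STAT, Pias4 was at 0.410 and 0.251, Pias2 at 0.201 and 0.111, and Pias3, which binds STAT3, at 0.138 and 0.0896. These 3 were past the 1.5-fold size, and Pias1 was at 0.245 and 0.174. Pias3, at 1.54-fold, and Pias4, at 1.63-fold, lie near that size, and this count was not taken again under other scalings. Pias3 passed the minimum through its Wistar mean. Ptpn11, a phosphatase that binds gp130, was at 1.02 and 0.850 (log2 difference -0.13).

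Genes known to respond to STAT3 were mixed. Of 8 listed genes 7 have a line and 5 passed the minimum, with 2 lower (65.6% of all genes) and 3 higher in SHR. The median log2 difference was 0.018 beside -0.052 for all genes. Junb was at 2.71 per 10000 in Wistar and 2.83 in SHR, Atf3 at 1.68 and 1.78 and Cebpb at 0.618 and 0.639, and these 3 transcription factor genes respond to many other signals. Myc was at 0.392 and 0.320. Cebpd was the 1 gene of these lower in SHR by the 1.5-fold size (26.5% of all genes), at 0.151 and 0.0809. It passed the minimum through its Wistar mean.

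**Figure D4:**
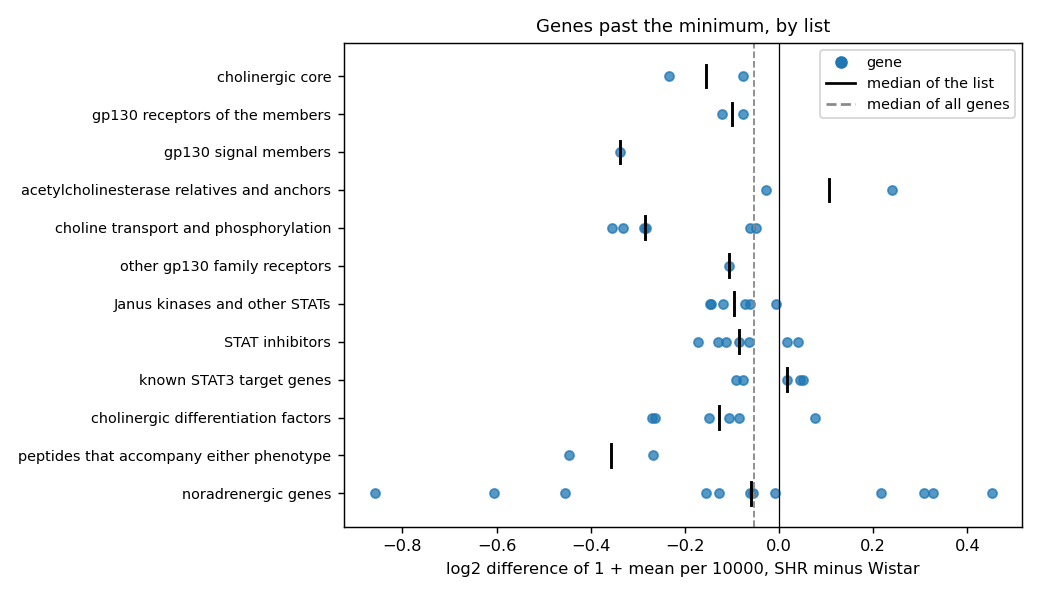
Log2 difference between SHR and Wistar, with 1 added to each mean per 10000, for each gene past the minimum in 12 lists (blue points), with the median of each list (black bar) and of all genes (dashed line at -0.052). The choline transport and phosphorylation genes have a median of -0.29, and the known STAT3 target genes a median of 0.018.

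The genes that guide cholinergic differentiation were represented unevenly. Tlx3, a transcription factor of cholinergic sympathetic neurons, was named after its values were seen. It was listed at 0 in Wistar and at 0.000792 per 10000 in SHR, a value that 11 genes share. Of the 10 genes in this list 6 passed the minimum, with 5 lower (65.6% of all genes) and 1 higher in SHR. By at least 1.5-fold 3 were lower (26.5% of all genes), and the median log2 difference was -0.13 beside -0.052 for all genes. Ret, the receptor tyrosine kinase of GDNF family ligands, which is required for cholinergic sympathetic neurons, was at 0.603 in Wistar and 0.330 in SHR, which is 45.3% lower. Its coreceptor for neurturin, Gfra2, was the 1 gene that was higher, at 1.68 and 1.83. Isl1, a transcription factor of sympathetic neuron development, was at 2.80 and 2.17, and the neurotrophin receptor gene Ntrk3 at 0.144 and 0.0787. Ntrk3 passed the minimum through its Wistar mean. The bone morphogenetic protein receptors Bmpr2 (0.474 and 0.330) and Bmpr1a (0.213 and 0.127) were lower as well.

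Of the 8 neuropeptide genes that go with either phenotype 2 passed the minimum. These were Npy, a cotransmitter of noradrenergic neurons, whose Wistar mean was 2.38 per 10000 and SHR mean 1.48, and Adcyap1, which encodes the peptide PACAP, at 0.445 and 0.200. Both were lower in SHR by at least 1.5-fold, beside 26.5% of all genes past the minimum. Npy, at 1.61-fold, lies near this size, and the count was not taken again under other scalings. Vip, Gal, Sst and Calcb were named after their values were seen. Vip, the cotransmitter of cholinergic sympathetic neurons, was at 0.150 per 10000 in Wistar and 0.0134 in SHR, which is 91.1% lower. Gal, which encodes galanin and is induced by the same cytokines, was at 0.151 and 0.0224, which is 85.2% lower. Both averages are under the minimum of 0.1. With no minimum, 6 of the 8 peptide genes were lower in SHR, beside 68.1% of all genes. The other 2 were higher, Sst at 0.0473 in Wistar and 0.0807 in SHR and Calcb at 0 and 0.00187.

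Set beside the noradrenergic genes, the cholinergic genes other than Ache were low. The means of Chat, Slc18a3 and Slc5a7 together came to 1.19% of those of Th, Dbh and Slc6a2 together in Wistar and to 0.688% in SHR, and Slc5a7 made up nearly all of it. Between the 2 vesicular transporters, Slc18a3 was at 0.00733% of Slc18a2 in Wistar and at 0.0144% in SHR, where Slc18a2 was at 5.36 and 3.63 per 10000. The means of Slc18a3 are near the lowest above 0 in each library, so no difference between the strains is read from this share. All 12 noradrenergic genes passed the minimum, with 8 lower (65.6% of all genes) and 4 higher in SHR. Their median log2 difference was -0.058 beside -0.052 for all genes, and it turned to 0.081 with the median ratio of all genes set to 1. Among the enzymes of norepinephrine synthesis, Th was at 10.2 and 10.1 per 10000 (higher in SHR with the median ratio set to 1), Dbh at 10.2 and 6.36, and Ddc at 7.05 and 3.44. The norepinephrine transporter gene Slc6a2 was at 15.9 and 15.2, also higher in SHR with that ratio set to 1. The 4 genes that were higher in SHR were Cyb561 (14.9 and 18.7), Phox2a (6.03 and 7.82), Gch1 (0.220 and 0.669) and Hand2 (0.250 and 0.452). Of these, Gch1 and Hand2 were past the 1.5-fold size (5.22% of all genes). Ddc and Dbh were lower by that size (26.5% of all genes).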

How the data were processed

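Dissociated stellate ganglia of male Wistar rats and SHRs (1 library each) were sequenced with 10x Genomics single cell 3' v3 chemistry on a HiSeq 4000. The submitters' processing notes name Cell Ranger 3.0.2, Seurat 3, DESeq2 (with no version) and the build Rnor_6.0, without their roles. Cells were clustered by the authors in Seurat. For each gene they deposited 1 number per library, a natural log taken after 1 was added to the mean over sympathetic neurons of counts per 10000. Filters on cells, the treatment of doublets and the number of neurons are not given in the sources used here, so depth and counting error are unknown. A deposited table of the authors' own comparison of the strains, with fold changes, p-values and shares of cells, was not used.

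Here the values were converted back to means with Python 3.11.15, NumPy 2.4.6 and pandas 2.3.3, leaving out 4 lines whose name occurs more than once. Log2 differences are the differences of the deposited logs divided by the natural log of 2. The means sum to 9998 in Wistar and 9998 in SHR, and 16000 and 14645 genes are above 0. The code was checked on simulated data. No gene level test was possible with 1 library per strain, and sizes of 1.5-fold take its place.

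The members and the gene lists were chosen with earlier results of these data known. Genes named are the 10 members and, in each list, the genes past the minimum up to the 6 of highest average plus those past the 1.5-fold size. Other genes are said to be named after their values were seen. Some genes of the lists are not reported here by name. Alternatives were other pseudocounts, totals, minimums and folds and a median difference of 0, and, added after seeing the data, a median ratio of 1. The patterns searched in promoter windows were chosen after the data were examined, and all 10 are reported. Sequences are RefSeq windows of GRCr8, which is not the build of the deposited values, and no other coordinate of that assembly is given.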

Additional observations from a re-analysis of the deposited data

How the results depend on the processing

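Directions depended on how the libraries were centred. With the median log2 difference of all genes set to 0, which adds 0.052 to each gene by construction, the log2 differences of Il6st (0.0052), Jak2 (0.046), Pemt (0.0038), Prima1 (0.025) and Th (0.043) became positive. So did those of Chat and Osmr, which are listed at 0 in both libraries. The 0.052 is itself reduced by the added 1, so that setting the median ratio of the means (1.16) to 1 was added after seeing the data. There Ache (0.10), Cntfr (0.019), Jak2 (0.052), Prima1 (0.012), Slc6a2 (0.14), Th (0.18) and the median of the noradrenergic genes (0.081) became positive. Il6st (-0.036) and Pemt (-0.029) stayed negative with the median ratio at 1. Taking mitochondrial and ribosomal protein genes from the total, of which they hold 19.3% in Wistar and 21.5% in SHR, turned Jak2 (0.0052) and Th (0.028). The median of the acetylcholinesterase relatives became -7.97e-05 with no minimum.

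Of the 5 members past the minimum, 5 were lower in SHR under the 4 planned scalings, and 3 with the median ratio at 1, where by construction all genes divide evenly. The count of 3 past the 1.5-fold size became 1 without mitochondrial and ribosomal protein genes (25.1% of all genes were lower by that size), 1 with the median difference at 0 (23.6%), 1 with the median ratio at 1 (17.3%) and 0 at 2-fold (11.3%). With a minimum of 1 per 10000, 2 members pass, 2 are lower (45.5% of all genes) and 1 is past the size (11.6%). With no minimum, 6 of 8 are lower (68.1%) and 4 are past the size (41.8%). The counts past the size were thus near the share of all genes under the scalings where they became 1. The share of cholinergic to noradrenergic means, 0.00733% in Wistar and 0.0144% in SHR between the 2 vesicular transporters, became 1.19% and 0.688% with 3 genes on each side. The order of the strains differs between these shares, and so do both sides of the share. No direction is read from the first share, because the means of Slc18a3 are near the lowest above 0. Pseudocounts of 0.1, 0.01 and 10 moved the log2 difference of 7, 8 and 6 members by over 10% and over 0.005, and cannot change its sign. No paired analysis was possible because there is only 1 library of each strain. Depth is unknown, so that no counting error can be given for low means.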

Other observations

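Some very low means recur exactly within a library, and this bears on the members at the bottom of the range. In the Wistar library 109 values were each shared by 5 or more genes, 752 genes in all, and in the SHR library 105 values by 1212 genes. The median of these recurrent values was 0.000283 per 10000 in Wistar and 0.000881 in SHR, and the lowest mean above 0 was 0.000140 and 0.000391. The recurrent value with the most genes was 0.000844 in SHR, with 57 genes, among them Il6r, which encodes the interleukin 6 receptor, and Bcl3, a STAT3 target gene. Bcl3 was at 0.0125 in Wistar. Osm, the gene of oncostatin M, was at 0.000237 in Wistar, the recurrent value with the most genes there (18), and at a value that 14 genes share in SHR, 0.00129. Il11 was at 0.00653 in Wistar and in SHR at a value that 14 genes share, 0.000668. Slc18a3 is the 1 of the 10 members with a shared value in either library. These genes were named after their values were seen.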
